A study of Mus musculus with 2 samples.

Results

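Neutrophils were taken from the 2 single-cell RNA-seq libraries of a study of lung repair, 1 of *Pclaf* WT and 1 of *Pclaf* KO mice, as barcodes selected on their own measured values. A barcode was kept if its number of detected genes lay above 200 and below 5000, and if less than 20% of its unique molecular identifiers (UMIs, tags that each count 1 captured mRNA molecule) came from mitochondrial genes. A kept barcode was called a neutrophil when *S100a8* plus *S100a9* reached 50 of every 10000 UMIs, at least 1 of the 4 genes *Retnlg*, *Csf3r*, *Cxcr2* and *Mmp9* was detected, and none of *C1qa*, *Cd3e*, *Cd79a*, *Cdh5* and *Epcam* had a UMI. The rule returned 596 of 45824 kept cells. Of these, 562 were among 30187 *Pclaf* WT cells (1.86%, exact Clopper-Pearson 95% interval 1.71 to 2.02%) and 34 were among 15637 *Pclaf* KO cells (0.217%, interval 0.151 to 0.304%). With the limits of 200 and 5000 set on UMIs in place of genes, the shares were 2.21% and 0.503%.

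Both libraries came from mice aged 8 to 10 weeks, 1 week after bleomycin, a drug that injures the alveolar epithelium, at 1.35 U/kg by the series record. The paper's methods and results print other doses. Digested lung was stained for CD31, CD45 and EpCAM and sorted by flow cytometry as CD31-/CD45-/EpCAM+ epithelial cells before droplet capture and 3' sequencing. *Pclaf* encodes a PCNA-binding factor of dividing cells, and the knockout came from an established mouse line. Both genotypes received bleomycin, no uninjured library was analysed here, and the number of mice behind each library is not given in the sources used here. With 1 library per genotype no difference between genotypes could be set against a spread between mice, so no test was run. Levels are given as CPM (the UMIs of a gene per 1000000 UMIs summed over the cells of a class) with exact Poisson 95% intervals. Ratios are on the log2 scale, *Pclaf* KO over *Pclaf* WT, with the exact conditional interval, for genes with at least 20 UMIs in neutrophils of both libraries together. All intervals cover counting error only.

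Neutrophils are short-lived granulocytes made in the bone marrow, where their granule proteins are transcribed in an order during maturation, so that a mature cell carries proteins whose mRNA it no longer makes. They leave the blood for injured lung along chemoattractants sensed by receptors such as CXCR2, and there release proteases, oxidants, interleukin 1 and chemokines that draw in further neutrophils. *S100a8* and *S100a9* encode the paired calcium-binding proteins of calprotectin, which fill the neutrophil cytosol.

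The *Pclaf* WT library held 30669 barcodes and 98171818 UMIs, the *Pclaf* KO library 17172 barcodes and 111267567 UMIs. The libraries shared 163 barcode sequences, and none of them marked a neutrophil in both. Although the sort was against CD45, a UMI of *Ptprc*, the CD45 gene, was found in 490 of 562 *Pclaf* WT neutrophils (87.2%) and in 31 of 34 *Pclaf* KO neutrophils (91.2%). By this mRNA the selected cells did not match the labelled gate, so their share describes the sorted library and not the lung. Other cell classes differed in number too, *Pclaf* WT before *Pclaf* KO. Endothelial cells numbered 5988 and 325, classical monocytes 326 and 27, alveolar macrophages 462 and 45, and alveolar type 2 cells 427 and 5280. The lower share in *Pclaf* KO was thus not particular to neutrophils, and its cause was not tested.

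Sex-linked transcripts stood apart from the stated male mice. *Xist*, the RNA that silences an X chromosome in female cells, was found in 24 of 562 *Pclaf* WT and 4 of 34 *Pclaf* KO neutrophils. Y-linked genes were found in 211 *Pclaf* WT neutrophils (37.5%) and in 2 *Pclaf* KO neutrophils, with 6 and 0 cells holding both kinds. Over all kept cells, 5811 of 30187 *Pclaf* WT cells held *Xist* and 9917 a Y-linked gene, against 8154 and 3485 of 15637 *Pclaf* KO cells. The part of mouse sex in any difference between the libraries was not tested.

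*Pclaf* itself was low in neutrophils. In the *Pclaf* WT library it had 13 UMIs in 9 of 562 neutrophils (11.7 CPM, 6.22 to 19.98), beside 39.3 CPM over all kept cells. In the *Pclaf* KO library it had 0 UMIs in 34 neutrophils, where the exact interval for 0 of the summed 70737 UMIs runs up to 52.1 CPM. The neutrophils therefore could not check the genotype label. All kept *Pclaf* KO cells still held 529 *Pclaf* UMIs (5.19 CPM) in 254 cells. Which part of the gene the allele removes, and whether the counted 3' end lies in it, was not examined.

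Cells were counted on both sides of the threshold on *S100a8* plus *S100a9*. The rule used these values, so the counts are a description and do not test the threshold. Among cells that met the rest of the rule, 374 *Pclaf* WT cells lay below 10 per 10000 UMIs, 25 lay between 10 and 50, and 562 lay at or above 50. Just outside, 7 *Pclaf* WT cells lay between 40 and 50, and just inside, 7 lay between 50 and 60. In the *Pclaf* KO library no cell lay between 10 and 50, and 144 lay below 10. The median neutrophil carried 634 *S100a8* plus *S100a9* UMIs per 10000 in *Pclaf* WT (range 51.5 to 3573) and 619 in *Pclaf* KO (52.6 to 1937). Of the rule's accessory genes, *Csf3r* was found in 92.7% and 88.2% of the selected cells, *Retnlg* in 78.6% and 70.6%, *Mmp9* in 64.8% and 55.9%, and *Cxcr2* in 56.9% and 58.8%, *Pclaf* WT before *Pclaf* KO.

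**Figure D1:**
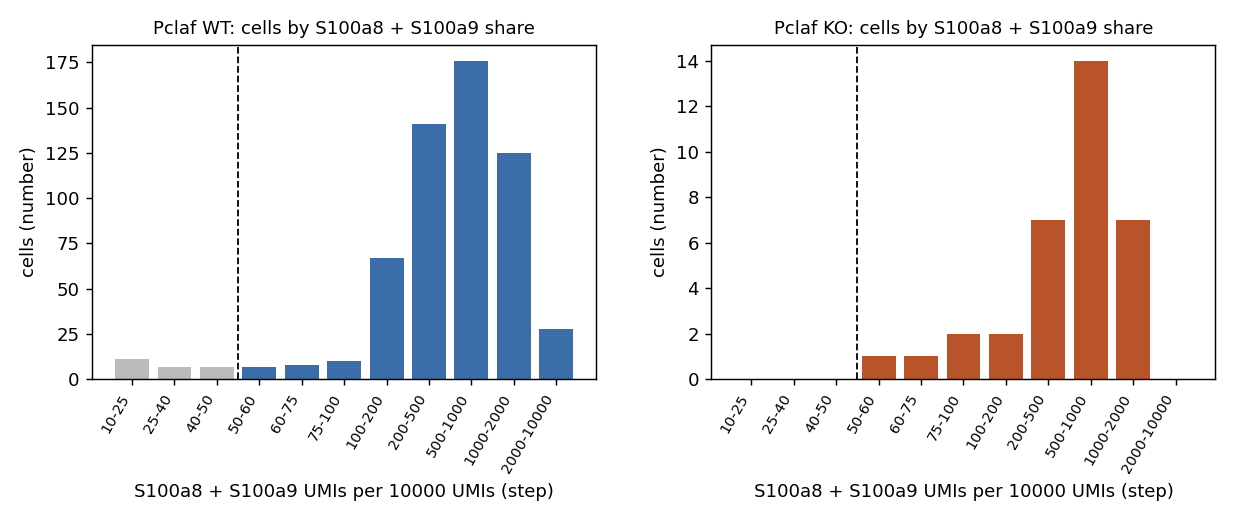
Number of cells (vertical axis) in steps of *S100a8* plus *S100a9* UMIs per 10000 UMIs (horizontal axis) among cells that met the rest of the rule, for *Pclaf* WT (left) and *Pclaf* KO (right), with the dashed line at the threshold of 50, grey bars for cells outside it and cells below 10 not drawn. The steps differ in width, so their counts are not densities. Of the steps drawn, 500 to 1000 held the most cells, 176 of *Pclaf* WT and 14 of *Pclaf* KO. The 3 steps just below the threshold held 25 and 0 cells.

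Genes that the rule did not use were compared with classical monocytes, the blood-borne phagocytes closest to neutrophils, taken within each library as cells low in *S100a8* and *S100a9* that held *Lyz2* and at least 2 of *Ly6c2*, *Ccr2* and *F13a1* (326 *Pclaf* WT and 27 *Pclaf* KO cells). Both classes were selected on measured values, so the ratios describe them and are not tests. Of 22 neutrophil markers outside the rule, 20 were at least 1 log2 unit higher in neutrophils in both libraries, where 12.6% of 5013 genes were, and 0 were as much lower, where 10.3% were. The markers' median log2 ratio was 4.37 in *Pclaf* WT and 4.03 in *Pclaf* KO, against -0.13 and 0.03 over all genes. Where a gene had 0 UMIs in monocytes, its ratio was taken against 3 UMIs over that class and is a lower bound.

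The decoy receptor of interleukin 1, *Il1r2*, stood at 3322 CPM in *Pclaf* WT and 3054 CPM in *Pclaf* KO neutrophils, against 48.3 and 13.3 CPM in monocytes. *G0s2*, an inhibitor of fat breakdown, stood at 4745 and 6729 CPM, against 30.2 CPM and 0 UMIs in monocytes. *Hdc*, the enzyme that makes histamine, stood at 1885 and 1753 CPM, against 23.4 and 46.6 CPM. All 3 stood far above their monocyte levels in both libraries, which matched the label. *Ly6g*, the antigen by which mouse neutrophils are usually stained, was counted at only 80.0 CPM (89 UMIs) in *Pclaf* WT and 42.4 CPM (3 UMIs) in *Pclaf* KO, with 0 UMIs in the monocytes of either library.

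Markers of other cell types were low for most lineages but not for all. The rule left out cells with a UMI of *C1qa*, *Cd3e*, *Cd79a*, *Cdh5* or *Epcam*. Low macrophage, lymphocyte, endothelial and epithelial values were thus set in part by the selection and are a description. The 14 monocyte and macrophage markers summed to 1186 CPM in *Pclaf* WT and 679 CPM in *Pclaf* KO neutrophils, with *Apoe* the most abundant, beside 6917 and 6272 CPM in monocytes. The list's defining receptor *Csf1r* stood at 72.8 and 84.8 CPM. The 11 lymphocyte and NK cell markers summed to 253 and 56.6 CPM with 1 and 10 members at 0, and the 10 eosinophil, basophil and mast cell markers summed to 10.8 and 0 CPM with 6 and 10 members at 0. The 7 dendritic cell markers summed to 36.8 and 0 CPM, the 7 platelet markers to 19.8 and 14.1 CPM, and the 6 red cell markers, *Hbb-bs* the most abundant, to 141 and 0 CPM.

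Surfactant and other epithelial transcripts were higher in the *Pclaf* KO library, while the difference in mesenchymal transcripts depended on which cells were admitted. The 10 alveolar type 2 (AT2) markers, led by the surfactant gene *Sftpc* and with none at 0, summed to 514 CPM in *Pclaf* WT and 33193 CPM in *Pclaf* KO neutrophils. Endothelial cells of the same libraries, which do not make surfactant, summed to 1648 and 18223 CPM for that list. In *Pclaf* KO, 1 cell of 10318 UMIs held 1773 of the 1928 *Sftpc* UMIs, and without the 2 *Pclaf* KO and 27 *Pclaf* WT cells over 5000 UMIs the list summed to 3868 CPM in *Pclaf* KO and 549 CPM in *Pclaf* WT. *Sftpc* was found in all 34 *Pclaf* KO neutrophils, with a lowest value of 5.67, a median of 23.9 and a highest value of 1718 per 10000 UMIs, and in 28.5% of *Pclaf* WT neutrophils. When every cell was thinned at random to 500 UMIs, *Sftpc* remained detected in 76.5% of *Pclaf* KO neutrophils and 59.7% of *Pclaf* KO endothelial cells, beside 10.3% and 10.6% in *Pclaf* WT. Surfactant detection thus followed the library in both cell types, and no surfactant value below is read as expression by neutrophils.

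The 10 other epithelial markers, led by the club cell gene *Scgb1a1* and with 2 at 0 in each library, summed to 601 CPM in *Pclaf* WT and 2516 CPM in *Pclaf* KO. The 10 mesenchymal markers, led by *Mgp*, summed to 3120 and 693 CPM with 0 and 5 at 0, and to 1575 and 837 CPM without cells over 5000 UMIs. Of the 5 with a ratio, 4 were at least 1 log2 unit above monocytes in both libraries, with medians of 1.72 in *Pclaf* WT and 2.67 in *Pclaf* KO. The median ratio of *Pclaf* KO over *Pclaf* WT for the list was -2.08 over these 5. Over the members with a ratio in each case it was 0.021 with the threshold on *S100a8* plus *S100a9* at 500 per 10000 UMIs, -0.047 with cells holding further genes of other lineages left out, and -0.53 without cells over 5000 UMIs. The further genes included *Col1a1*, a member of this list, so the value of -0.047 was set in part by the selection. The 8 endothelial markers, led by *Calcrl*, summed to 537 and 70.7 CPM with 0 and 5 at 0. The part of these transcripts in the differences between the libraries was not tested, beyond the values given without the large cells.

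Neutrophils had the fewest UMIs per cell of the 5 cell classes compared. The median was 1505 UMIs and 731.5 genes per *Pclaf* WT neutrophil and 1774 UMIs and 769 genes per *Pclaf* KO neutrophil. Classical monocytes had medians of 3396 UMIs in *Pclaf* WT and 4525 in *Pclaf* KO, endothelial cells 2252.5 and 2862, AT2 cells 5928 and 8228, and alveolar macrophages, the resident phagocytes of the airspace, 6635.5 and 7514. Neutrophils lay below each of these classes in both libraries. The rule's exclusion of cells with a UMI of other lineages left out 242 *Pclaf* WT and 6 *Pclaf* KO cells that met its other parts. Their medians were higher, at 3220 and 7516.5 UMIs. The lowest barcode in either library had 500 UMIs and the lowest neutrophil 501 in *Pclaf* WT and 577 in *Pclaf* KO, so neutrophils with less RNA than that could not be seen.

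**Figure D2:**
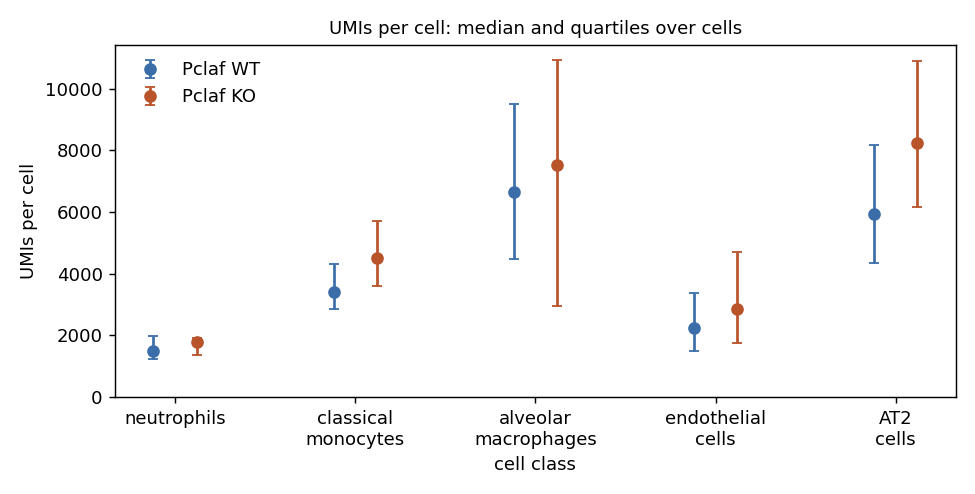
UMIs per cell (vertical axis) for 5 cell classes (horizontal axis) in *Pclaf* WT and *Pclaf* KO, with points at the median over cells and bars from the 25th to the 75th percentile. Neutrophils had the lowest median in each library, 1505 UMIs in *Pclaf* WT and 1774 UMIs in *Pclaf* KO.

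At equal depth neutrophils still showed few genes. After thinning each cell to 500 UMIs a neutrophil had a median of 323 genes in *Pclaf* WT and 298 in *Pclaf* KO, below monocytes at 355 and 339, alveolar macrophages at 359 and 338 and endothelial cells at 395 and 386. AT2 cells, at 320 and 295, were close to neutrophils. The 2 S100 genes alone made up 7.84% and 5.53% of all neutrophil UMIs. Ribosomal protein genes made up 6.20% in *Pclaf* WT and 5.32% in *Pclaf* KO neutrophils, against 16.6% and 17.0% in monocytes of the same libraries. The median mitochondrial share was 4.12% and 3.29%. Fewer mRNA molecules per cell and poorer capture of them could not be told apart here.

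Interleukin 1 and chemokine genes stood well above their levels in monocytes. *Il1b*, which encodes interleukin 1 beta, stood at 11339 CPM in *Pclaf* WT neutrophils (11142 to 11539) and 15989 CPM in *Pclaf* KO neutrophils (15070 to 16949). Monocytes of the same libraries stood at 905 and 566 CPM, log2 ratios of 3.65 and 4.82. After thinning to 500 UMIs, *Il1b* was detected in 93.2% of *Pclaf* WT and 100% of *Pclaf* KO neutrophils, against 0.969% and 0.308% of endothelial cells. *Cxcl2*, a chemokine that binds CXCR2, stood at 4626 and 4283 CPM in neutrophils, 58.9 CPM in *Pclaf* WT monocytes and 0 UMIs in *Pclaf* KO monocytes. Of 13 chemokine and cytokine genes compared, 8 were at least 1 log2 unit above monocytes in both libraries and 0 below, with medians of 2.53 and 2.53. *Osm*, a cytokine of the interleukin 6 family, was among the 8 at 660 and 806 CPM, and *Il1rn*, the natural blocker of the interleukin 1 receptor, at 442 and 594 CPM. *Il6* had 1 UMI in 562 *Pclaf* WT neutrophils and 0 in *Pclaf* KO, and *Il10* had 0 in both.

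Receptors for chemoattractants formed the next group. Of 8 compared, 7 were above monocytes by that size in both libraries and 0 below, with medians of 3.21 and 3.81, but *Cxcr2* had helped to select the cells. Outside the rule, *Ccr1*, a receptor for CCL3 and related chemokines, stood at 639 and 876 CPM against 49.1 and 26.6 CPM in monocytes, and *C5ar1*, the receptor of complement fragment C5a, at 456 and 594 CPM against 34.7 and 6.66 CPM. *Cxcr4*, the receptor that holds neutrophils in the marrow and is also found on aged and tissue neutrophils, stood at 336 and 254 CPM. *Cxcr2* and *Cxcr4* were detected together in 25 of 562 *Pclaf* WT and 1 of 34 *Pclaf* KO neutrophils at 500 UMIs, where 135 and 8 had *Cxcr2* and 99 and 4 had *Cxcr4*.

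Sensors of microbes and damage were above monocytes in part. Among pattern recognition and lectin receptors, 6 of 11 were higher in both libraries and 0 lower, with medians of 1.19 and 2.31. *Clec4d*, a lectin receptor for mycobacterial lipid, stood at 1224 and 1541 CPM against 61.2 and 66.6 CPM, and *Nlrp3*, the inflammasome sensor, at 605 and 664 CPM against 55.9 and 33.3 CPM. *Cd14*, the co-receptor for bacterial lipopolysaccharide, stood at 924 and 1527 CPM against 201 and 107 CPM. Fc and inhibitory receptors had 4 of 9 higher and 0 lower. Cytokine receptors had 6 of 11 higher, *Csf3r* of the rule among them, and 1 lower, and adhesion genes 4 of 9 higher and 0 lower.

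Genes of effector chemistry were mixed. The NADPH oxidase, the enzyme of the oxidative burst, had 2 of 6 members higher than in monocytes and 1 lower. Its membrane subunit *Cybb* was the lower one, at 356 CPM in *Pclaf* WT and 198 CPM in *Pclaf* KO neutrophils against 1256 and 1045 CPM in monocytes, while its cytosolic subunit *Ncf1* stood at 410 and 396 CPM against 137 and 66.6 CPM. *Ptgs2*, the inducible enzyme of prostaglandin synthesis, stood at 1828 and 2898 CPM against 68.0 and 26.6 CPM, and lipid mediator enzymes had 4 of 6 members higher and 0 lower. The list named for gelatinase granules had 3 of 4 higher, among them *Mmp9* of the rule and *Mmp8*, a neutrophil collagenase, at 332 and 184 CPM against 64.2 and 73.2 CPM. Stefins and antiproteases, inhibitors of cathepsins and serine proteases, had 4 of 4 higher, and *Stfa2l1* had 495 UMIs in *Pclaf* WT and 35 in *Pclaf* KO neutrophils with 0 in monocytes of both.

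Of 22 immediate early and NF-kB feedback genes, 13 were higher in both libraries and 1 lower, with medians of 1.19 and 1.72. *Dusp1*, a phosphatase that ends MAP kinase signals, stood at 2597 and 2997 CPM against 867 and 353 CPM, and *Nfkbiz*, a nuclear NF-kB cofactor, at 1327 and 1329 CPM against 307 and 86.6 CPM. *Jun*, which encodes an AP-1 subunit, was the gene lower in both, at 116 and 127 CPM against 386 and 379 CPM. Myeloid transcription factors had 2 of 12 higher and 1 lower, shares near the 12.6% and 10.3% of all genes, and *Cebpb*, a factor of emergency granulopoiesis, was among the higher ones at 3660 and 4580 CPM against 1232 and 979 CPM.

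Interferon-stimulated genes had 4 of 15 higher and 3 lower, with *Ifitm3*, a membrane protein that blocks viral entry, at 953 and 891 CPM against 3197 and 3682 CPM. Survival genes had 4 of 13 higher and 2 lower, and *Mcl1*, the factor on which neutrophil survival depends, stood at 1460 and 1612 CPM against 520 and 486 CPM. Glycolysis and hypoxia genes had 4 of 19 higher and 0 lower, with medians of 0.23 and -0.50. Cell cycle genes had 0 of 6 higher and 2 lower. For each of these lists the share of members that were higher lay closer to the 12.6% of all genes than it did for the markers.

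Genes described in neutrophils of lung tissue were present in part. Of 12 listed, 6 were higher than in monocytes in both libraries and 1 lower. *Slc7a11*, the cystine importer, stood at 1307 and 1258 CPM against 31.0 and 6.66 CPM, and *Thbs1*, a matrix glycoprotein that activates TGF-beta, at 913 and 891 CPM against 328 and 220 CPM. *Cd274*, which encodes the checkpoint ligand PD-L1, stood at 186 and 523 CPM against 77.0 and 46.6 CPM. *Ctsb*, a lysosomal protease, was the lower one at 277 and 240 CPM against 779 and 852 CPM. *Siglecf*, an antigen of a tissue-resident neutrophil state in tumours, had 20 UMIs in *Pclaf* WT and 2 in *Pclaf* KO neutrophils.

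**Figure D3:**
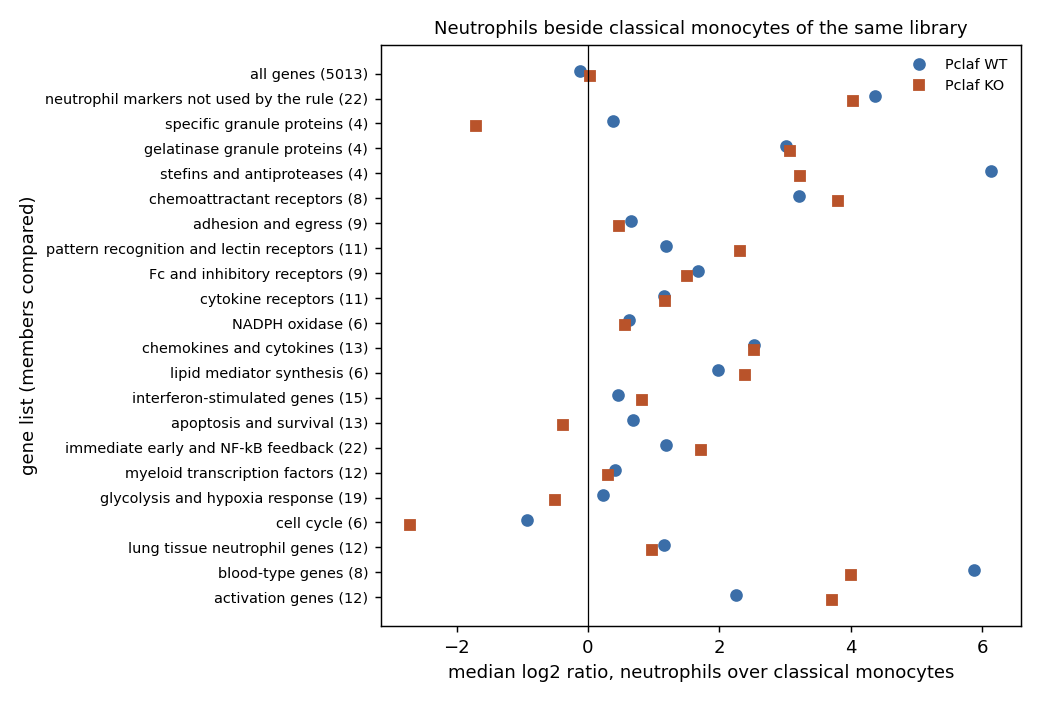
Median log2 ratio of neutrophils over classical monocytes of the same library (horizontal axis) for each gene list with at least 4 members compared (vertical axis, number of members in brackets), circles for *Pclaf* WT and squares for *Pclaf* KO. Marker, stefin, chemoattractant receptor and activation lists lie to the right of the line at 0 in both libraries, cell cycle genes to its left, and all 5013 genes at -0.13 and 0.03. Some lists hold genes that the rule used.

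Among the 15 genes outside the rule that most exceeded monocytes in the lower of both libraries were *G0s2*, *Cxcl2*, *Il1r2*, *Slc7a11*, *Hdc* and *Ptgs2* from the lists above. *Acod1*, which makes the antimicrobial metabolite itaconate, stood at 1175 and 1541 CPM against 3.78 CPM and 0 UMIs in monocytes, and *Trem1*, an amplifier of inflammatory signals, at 654 and 947 CPM against 13.6 CPM and 0 UMIs. *Mxd1*, an antagonist of MYC, stood at 1447 and 1357 CPM against 55.1 and 53.3 CPM. *Antxr2*, which encodes an anthrax toxin receptor, stood at 1903 and 1951 CPM against 62.7 and 13.3 CPM.

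A small set of *Pclaf* WT neutrophils carried mRNAs of specific granule proteins. *Camp* (cathelicidin), *Ngp* (neutrophilic granule protein) and *Ltf* (lactoferrin) encode contents of the specific granules and are transcribed in myelocytes and metamyelocytes, not in the mature cell. The 3 genes lie on chromosome 9, and *S100a8* and *S100a9* lie on chromosome 3. C/EBP epsilon drives the specific granule programme in the marrow, and the 250 bases before the start of each gene are shown so that C/EBP-like letters can be seen beside the genes on which cells differed. RefSeq sequences on GRCm38.p6 run 5' to 3' on the gene's strand, in lower case, with matches to TTGCNNAA or its reverse TTNNGCAA in capitals.

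S100a8: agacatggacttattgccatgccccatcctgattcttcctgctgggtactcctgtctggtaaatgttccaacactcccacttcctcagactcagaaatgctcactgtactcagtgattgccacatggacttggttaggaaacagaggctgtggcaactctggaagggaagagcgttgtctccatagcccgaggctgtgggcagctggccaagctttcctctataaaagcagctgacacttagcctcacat
S100a9: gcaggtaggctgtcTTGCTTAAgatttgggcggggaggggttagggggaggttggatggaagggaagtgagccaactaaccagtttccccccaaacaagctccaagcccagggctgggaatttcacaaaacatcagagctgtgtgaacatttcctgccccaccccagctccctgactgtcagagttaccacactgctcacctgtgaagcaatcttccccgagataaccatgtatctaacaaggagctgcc
Camp: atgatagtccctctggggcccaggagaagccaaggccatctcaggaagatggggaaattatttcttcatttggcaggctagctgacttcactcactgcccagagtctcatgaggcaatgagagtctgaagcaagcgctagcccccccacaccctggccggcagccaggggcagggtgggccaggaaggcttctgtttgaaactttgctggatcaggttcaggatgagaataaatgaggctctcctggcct
Ngp: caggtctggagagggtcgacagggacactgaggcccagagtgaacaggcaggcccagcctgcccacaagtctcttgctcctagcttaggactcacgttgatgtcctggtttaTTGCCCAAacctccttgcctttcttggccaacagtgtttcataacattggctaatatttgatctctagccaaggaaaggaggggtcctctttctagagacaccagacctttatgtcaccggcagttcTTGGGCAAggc
Ltf: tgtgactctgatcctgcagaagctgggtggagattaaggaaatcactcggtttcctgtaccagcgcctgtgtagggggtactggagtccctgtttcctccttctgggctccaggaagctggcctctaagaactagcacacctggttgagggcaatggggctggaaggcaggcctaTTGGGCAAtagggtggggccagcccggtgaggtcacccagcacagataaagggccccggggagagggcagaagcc

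The windows are chr3:90668821-90669070 (*S100a8*, plus strand), chr3:90695722-90695971 (*S100a9*, minus strand), chr9:109849457-109849706 (*Camp*, minus strand), chr9:110419558-110419807 (*Ngp*, plus strand) and chr9:111019042-111019291 (*Ltf*, plus strand). *S100a9* held 1 match that began 236 bases before the start, *Ngp* held 2 that began 138 and 11 bases before it, and *Ltf* held 1 that began 75 bases before it. *Lcn2*, a further specific granule gene at chr2:32387740-32387989 on the minus strand, held 1 match 216 bases before its start. *S100a8* and *Camp* held 0, which says only that these letters are not in this window. Of 32851 windows of that length in the RefSeq table, 9.56% held a match, and a match describes letters and not a bound site.

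By these genes, 23 of 562 *Pclaf* WT neutrophils (4.09%, exact interval 2.61 to 6.08%) held at least 10 UMIs of *Camp*, *Ngp* and *Ltf* together, 3 held 3 to 9, and 536 held fewer than 3, of which 518 held 0. In the 23 cells the sum ranged from 11 to 753 UMIs, with *Ngp* in 23, *Camp* in 21 and *Ltf* in 19 of them. None of the 34 *Pclaf* KO neutrophils reached 10 UMIs, but the exact interval of 0 of 34 runs up to 10.3%, above the *Pclaf* WT share. An absence from *Pclaf* KO was therefore not detectable at this number of cells. The grouping used these genes, so their levels are a description. *Camp* stood at 28027 CPM in the 23 cells and 0 UMIs in the 536, *Ngp* at 28114 and 12.1 CPM, and *Ltf* at 6798 and 10.1 CPM.

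The 23 cells had more UMIs and a larger calprotectin share than the others, measures that their selection used in part: the group needed 10 raw UMIs, which deep cells reach more easily, and *S100a8* and *S100a9* are rule genes. A further 26 *Pclaf* WT barcodes high in *S100a8* and *S100a9*, with a median of 830 UMIs, were left out for want of an accessory gene. Of these, 3 held at least 10 UMIs of *Camp*, *Ngp* and *Ltf* together. Summed over all 26, *Ngp* stood at 11969 CPM. The 23 cells had a median of 3751 UMIs and 1099 genes, against 1481.5 UMIs and 722.5 genes in the 536, and *S100a8* plus *S100a9* made up a median of 2679 against 599 per 10000 UMIs. *Lcn2*, which encodes the iron-trapping protein lipocalin 2, stood at 9435 against 626 CPM (log2 ratio 3.91), and *Cybb* at 2011 against 165 CPM (3.60). *Cebpe*, the gene of C/EBP epsilon, stood at 183 against 2.02 CPM. *Ly6g* stood at 392 against 41.3 CPM, so that this stain's gene was higher in the granule-rich cells. Of 5147 genes with a ratio, 10.2% were at least 1 log2 unit higher and 28.9% lower in the 23 cells. Cell cycle genes had 4 of 5 higher, and *Mki67*, a marker of dividing cells, was found in 4 of the 23 cells. Of those 4 cells, 1 was the largest cell, which is described below and held mainly azurophil granule transcripts.

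Inflammatory genes were lower in the same cells. *Il1b* was found in 8 of the 23 cells (34.8%) and in 532 of the 536 (99.3%), at 714 against 12593 CPM (log2 ratio -4.14), although the 23 cells were deeper. *Cxcl2* stood at 618 against 5104 CPM (-3.05) and *Il1r2* at 279 against 3670 CPM (-3.72). *Csf3r*, the receptor of the growth factor G-CSF, stood at 183 against 1833 CPM (-3.33), and *Cxcr2* at 104 against 554 CPM, but both were among the 4 accessory genes of the rule and are given as a description. All 10 activation genes with a ratio were at least 1 log2 unit lower, with a median of -2.38 against -0.26 over all genes. Of 22 immediate early and NF-kB genes 16 were lower, and of 11 pattern recognition and lectin receptors 9 were. The groups did not separate fully, because 8 of the 23 cells held *Il1b*.

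**Figure D4:**
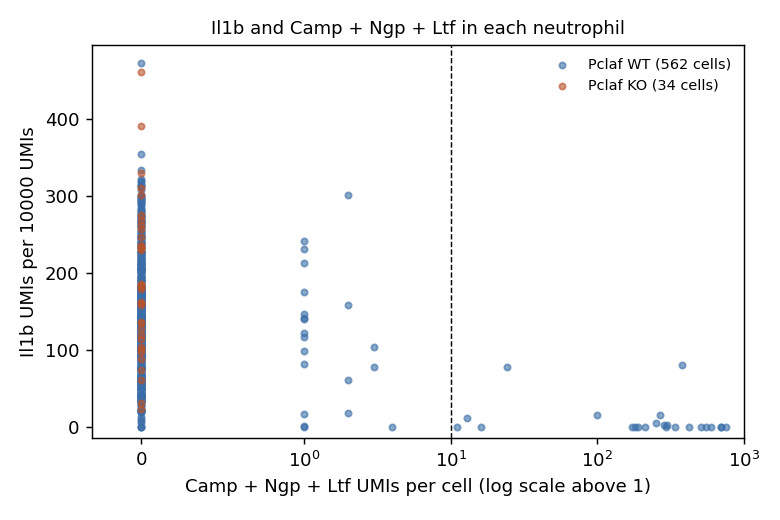
*Il1b* UMIs per 10000 UMIs (vertical axis) against *Camp* plus *Ngp* plus *Ltf* UMIs per cell (horizontal axis, log scale above 1) for each neutrophil, 562 of *Pclaf* WT and 34 of *Pclaf* KO, with the dashed line at 10 UMIs. Of the 23 *Pclaf* WT cells to the right of the line, 21 lie at or below 15.8 *Il1b* UMIs per 10000 and the other two at 77.9 and 80.3, and all *Pclaf* KO cells lie at the left edge.

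A single *Pclaf* WT cell of 17187 UMIs, the largest neutrophil, held nearly all transcripts of the azurophil granules, which form before the specific ones. It carried 262 of 263 *Elane* UMIs (neutrophil elastase), 192 of 192 *Mpo* UMIs (myeloperoxidase) and 228 of 231 *Prtn3* UMIs (proteinase 3), with 3 *Camp* and 8 *Ngp* UMIs. The levels of these 3 genes in *Pclaf* WT neutrophils rest on that cell. It was also 1 of the 23 cells above, at their lowest sum of 11 UMIs, and held 4 *Mki67* and 8 *Top2a* UMIs. The values of the 23 cells were not recomputed without it, so they mix this cell with the others. No azurophil gene had a UMI in *Pclaf* KO neutrophils.

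Differences between the genotypes were next set against the whole table. Of 5013 genes with a ratio, 353 (7.04%) were at least 1 log2 unit higher and 843 (16.8%) at least 1 unit lower in *Pclaf* KO, with a median of -0.18, and 818 further genes with 20 or more UMIs had 0 in *Pclaf* KO. The sums behind them were 70737 UMIs over 34 *Pclaf* KO cells and 1112864 UMIs over 562 *Pclaf* WT cells, and each of the 10 genes with the lowest ratio under the naming rule rested on 1 *Pclaf* KO UMI. Among the 10 genes with the highest ratio were *Sftpc*, *Sftpb* and *Sftpa1* (surfactant proteins), *Cxcl15* and *Napsa* (lung epithelium) and *Scgb1a1*, all epithelial genes, whose part as free RNA or attached material was not tested. The exceptions included *Mefv*, the gene of the inflammasome regulator pyrin, at 35.0 CPM in *Pclaf* WT and 170 CPM in *Pclaf* KO (12 UMIs), a log2 ratio of 2.28 (1.21 to 3.24).

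Neutrophil markers had a median ratio near 0 between genotypes. Of 22, 1 was higher by that size (*Hcar2*) and 2 lower (*Wfdc21* and *Cd177*), with a median of 0.01. *G0s2* had a ratio of 0.50 (0.37 to 0.64), an interval that excludes 0. *Il1r2* differed by -0.12 (-0.33 to 0.08), an interval that holds 0. *Hcar2*, the receptor for hydroxybutyrate and niacin, stood at 75.5 and 240 CPM (17 *Pclaf* KO UMIs), a ratio of 1.67 (0.83 to 2.43). Chemoattractant receptors, cytokine receptors, pattern recognition receptors and NADPH oxidase subunits had medians of -0.01, -0.11, 0.33 and -0.19 and 0 members higher, and only *Ltb4r1* among them was lower, on 1 *Pclaf* KO UMI.

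Granule genes were read by list, with no test of a difference between the lists. The assignment of genes to granule types was not checked, so the lists do not separate the types with certainty. The 4 genes with a ratio in the gelatinase list had a median of -0.05, and 0 were at least 1 unit lower in *Pclaf* KO. *Mmp8*, in this list, was lower there by less than 1 unit. Of 4 specific granule genes with a ratio 3 were at least 1 unit lower, *Lyz2* had a ratio of 0.98, and *Camp*, *Ngp* and *Ltf* had 0 UMIs in *Pclaf* KO. *Lcn2* stood at 1533 CPM in *Pclaf* WT and 551 CPM in *Pclaf* KO (-1.48, -1.97 to -1.02), and *Cd177*, a surface protein stored in these granules, at 136 and 28.3 CPM, the latter from 2 UMIs. Without the *Pclaf* WT cells that held 3 or more UMIs of *Camp*, *Ngp* and *Ltf*, the ratio of *Lcn2* was -0.18, that of *Cd177* -0.36 and that of *Wfdc21*, an antimicrobial whey acidic protein, -0.55 in place of -1.29. Of the 4 specific granule genes with a ratio, 0 were then at least 1 unit lower and 1 was higher, *Lyz2* at 1.21. The differences of *Lcn2*, *Cd177* and *Wfdc21* were thus larger with those *Pclaf* WT cells included and that of *Lyz2* smaller, and 34 *Pclaf* KO cells were too few to tell whether such cells were missing there. Leaving out these cells, and leaving out cells over 5000 UMIs, were alternatives chosen after the values were seen.

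*Retnlg*, a resistin-like secreted protein of blood neutrophils, was lower in *Pclaf* KO with or without those cells. It was used in the rule as 1 of 4 alternatives, and so is given as a description. It stood at 4351 CPM in *Pclaf* WT (4229 to 4475) and 2036 CPM in *Pclaf* KO (1717 to 2397), a ratio of -1.10 (-1.35 to -0.86). The ratio was -1.03 without the granule-rich cells and -1.15 without cells over 5000 UMIs. Per cell, the median was 20.03 per 10000 UMIs in *Pclaf* WT and 10.1 in *Pclaf* KO, and both libraries ran from 0 to a highest value of 677 and 116, so the cells overlapped widely. At 500 UMIs it was detected in 58.9% and 44.1% of cells.

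Among single inflammatory genes, *Il1b*, *Ptgs2* and *Nfkbia* were higher in *Pclaf* KO beyond counting error, while *Nfkbiz* (1327 and 1329 CPM) and *Cxcl2* were not. Other abundant genes also exceeded it, among them *Gm42418* at 0.63 (0.59 to 0.68), mt-Co3 at 0.33 (0.21 to 0.45) and *Malat1* at 0.27 (0.16 to 0.38). *Il1b* had a ratio of 0.50 (0.41 to 0.58), and of 0.34 without the granule-rich cells, with a median of 136 per 10000 UMIs over *Pclaf* WT cells (0 to 472) and 180 over *Pclaf* KO cells (22.5 to 460). *Ptgs2* had a ratio of 0.67 (0.45 to 0.87) and was detected at 500 UMIs in 51.1% of *Pclaf* WT and 73.5% of *Pclaf* KO cells. Endothelial cells also held more of it in *Pclaf* KO, at 29.4 CPM in *Pclaf* WT and 61.4 CPM in *Pclaf* KO. *Nfkbia*, the inhibitor that NF-kB induces against itself, stood at 980 CPM (923 to 1040) and 2219 CPM (1886 to 2595), a ratio of 1.18 (0.93 to 1.42). At 500 UMIs it was detected in 33.5% (29.6 to 37.5%) and 52.9% (35.1 to 70.2%) of cells, intervals that overlap, beside 7.52% and 10.8% of endothelial cells. The ratio of *Cxcl2* was -0.11 (-0.28 to 0.06).

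Of the 12 activation genes, 4 were at least 1 unit higher in *Pclaf* KO (*Ccl3*, *Ccl4*, *Nfkbia* and *Cd274*) and 1 lower (*Tnf*, on 2 *Pclaf* KO UMIs), with a median of 0.58. That median was 0.62 without cells over 5000 UMIs, 0.43 without the granule-rich cells and 0.39 with cells holding genes of other lineages left out more strictly. *Ccl3* and *Ccl4*, chemokines for monocytes and lymphocytes, stood at 199 and 274 CPM in *Pclaf* WT and 707 and 749 CPM in *Pclaf* KO. Few cells carried them. *Ccl3* was found in 58 of 562 *Pclaf* WT cells and 7 of 34 *Pclaf* KO cells, and *Ccl4* in 75 and 8. The 5 highest cells held 94.0% of the *Ccl3* and 92.5% of the *Ccl4* UMIs in *Pclaf* KO, and 41.0% and 35.1% in *Pclaf* WT. With so few *Pclaf* KO cells holding these genes, such high shares follow in part from that number. A single *Pclaf* KO cell held 30 of the 50 *Ccl3* UMIs and 29 of the 53 *Ccl4* UMIs there. Without that cell, an alternative chosen after the values were seen, *Ccl3* stood at 290.1 CPM, a ratio of 0.54 (-0.20 to 1.20), and *Ccl4* at 348 CPM, a ratio of 0.34 (-0.32 to 0.95). Neither was then 1 unit higher. Both *Tnf* UMIs lay in that cell too, and of the 11 activation genes that still had a ratio 2 were higher and 0 lower. The same pair of genes were the 2 higher members of the chemokine and cytokine list. *Cd274* stood at 186 CPM (162 to 213) and 523 CPM (368 to 721), from 37 *Pclaf* KO UMIs. *Atf3*, a stress-induced transcription factor, stood at 244 and 622 CPM, a ratio of 1.35 (0.85 to 1.81). The immediate early and NF-kB list had a median of 0.26 with 2 of 22 members higher and 1 lower, and the chemokine and cytokine list 0.34 with 2 of 13 higher and 1 lower, beside 7.04% higher and 16.8% lower over all genes.

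The immediate early median was -0.04 when cells with a UMI of any of 9 further genes of other lineages (*Csf1r*, *Ly6c2* and *Col1a1* among them) were also left out. Under that exclusion the ratio of *Ccl3* was 1.11, that of *Ccl4* 0.84 and that of *Bcl2a1b*, an anti-apoptotic BCL2 relative, 0.77 in place of 1.31. The higher values in *Pclaf* KO of these genes therefore depended in part on which cells were admitted.

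Among 13 survival genes 3 were higher, *Bcl2a1a* and *Bcl2a1b* among them, and 2 lower (*Bcl2* and *Bcl2l1*, on 1 and 2 *Pclaf* KO UMIs), with a median of -0.11, beside 7.04% higher and 16.8% lower over all genes. Among 15 interferon-stimulated genes 2 were higher (*Isg15* and *Slfn1*), 1 was lower (*Gbp2*, on 1 UMI) and the median was 0.18. *Slfn1*, a schlafen protein of myeloid and T cells, stood at 153 and 410 CPM, a ratio of 1.42 (0.80 to 2.00). Cells with 3 or more interferon-stimulated genes at 500 UMIs numbered 46 of 562 (8.19%) in *Pclaf* WT and 3 of 34 (8.82%) in *Pclaf* KO. Glycolysis and hypoxia genes had 1 of 19 higher and 4 lower, all 4 on 3 or fewer *Pclaf* KO UMIs, with a median of -0.51, and of -0.17 without cells over 5000 UMIs.

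*Lyz2*, which encodes lysozyme M, is listed among the specific granule proteins and went the other way, at 3043 CPM in *Pclaf* WT and 6008 CPM in *Pclaf* KO (0.98). Without cells over 5000 UMIs its ratio was 0.16. AT2 cells and macrophages also make *Lyz2*, and the 2 large *Pclaf* KO cells, 1 of them the cell with 17.2% of its UMIs in *Sftpc*, held 24.0% of all *Pclaf* KO neutrophil UMIs. The part of other cells' RNA in the ratio of *Lyz2* was not tested beyond the value without these cells.

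**Figure D5:**
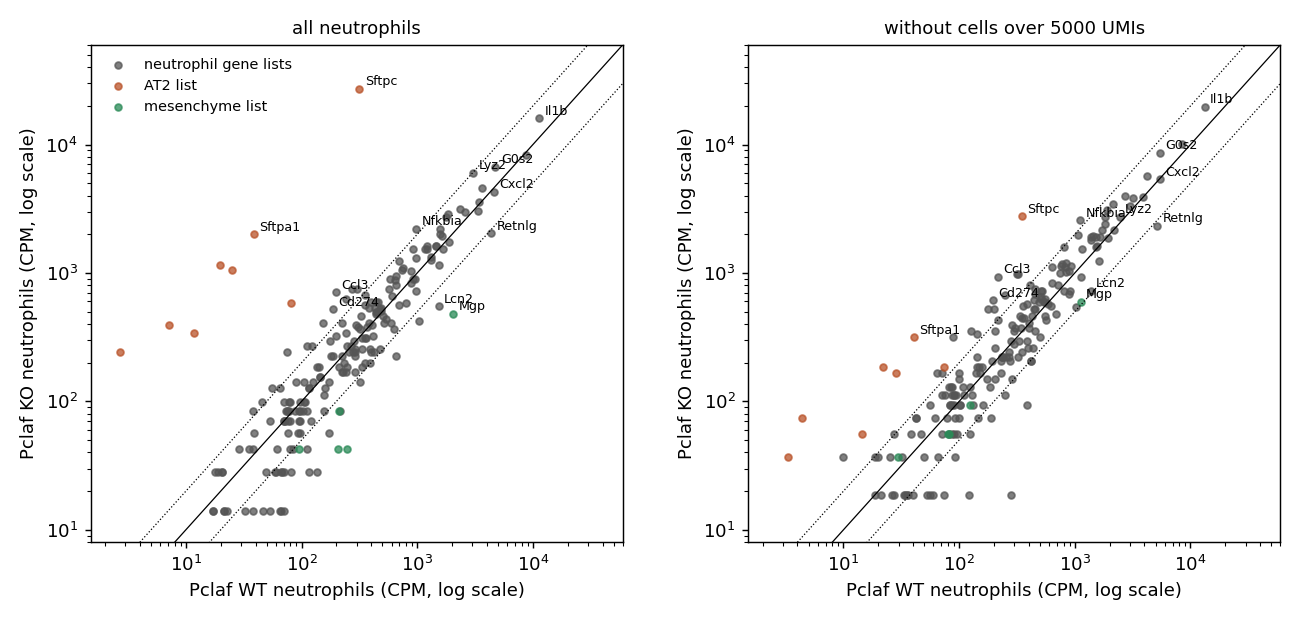
Level of each listed gene in *Pclaf* KO neutrophils (vertical axis, CPM, log scale) against *Pclaf* WT neutrophils (horizontal axis, CPM, log scale), over all cells (left) and without cells over 5000 UMIs (right), with grey points for neutrophil gene lists, orange for the AT2 list and green for the mesenchyme list. The solid line marks equal levels and the dotted lines 1 log2 unit, and genes at 0 in either library or under 20 UMIs are not drawn. Most grey points lie between the dotted lines, and the AT2 genes lie above them in both panels.

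Variation among the 562 *Pclaf* WT neutrophils was described along the summed share of 11 genes of marrow and blood neutrophils, *Camp*, *Ngp*, *Ltf*, *Cxcr2*, *Mmp8*, *Retnlg* and *Lcn2* among them, with every cell thinned to 500 UMIs and the cells cut into 4 groups of 140 or 141 by that share. Genes outside that list were then read, with and without the cells that held at least 10 UMIs of *Camp*, *Ngp* and *Ltf*, whose genes are part of the share. *S100a8* stood at 17711 CPM in the lowest group and 63623 CPM in the highest, and at 17784 and 50882 CPM without those cells, with the groups between in order. *S100a9* stood at 20551 and 81200 CPM, and at 20855 and 66124 CPM without them. *Wfdc21* stood at 383, 485, 693 and 1968 CPM from lowest to highest, and at 1266 CPM in the highest group without them. *S100a8* and *S100a9*, and *Retnlg* and *Cxcr2* within the share, were used to select the cells, so the course of the calprotectin genes is a description.

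Single inflammatory genes took differing courses along the 4 groups. *Il1b* stood at 12783, 15056, 15342 and 11985 CPM from lowest to highest, and at 13991 CPM in the highest group without the granule-rich cells. *Cxcl2* stood at 5809, 5446, 5585 and 5371 CPM, and at 5978, 4838, 5879 and 6255 CPM without those cells, so the last group was lowest in one setting and highest in the other. *Il1b* and *Il1r2*, at 3906, 5147, 4287 and 2634 CPM, were highest in a middle group. *Ptgs2* was lowest in the last group, at 2542, 2481, 2511 and 1598 CPM. *Nfkbiz* was highest in the third, at 1193, 1597, 2035 and 1554 CPM. With the granule-rich cells included, 3 activation genes fell at every step in this thinning. *Ccl3* stood at 298, 271, 144 and 29.6 CPM, *Ccl4* at 355, 328, 260 and 178 CPM, and *Tnf* at 170, 71.3, 43.3 and 29.6 CPM. Each had 25 or fewer UMIs per group. In a second random thinning *Ccl3* stood at 511, 128, 115 and 148 CPM, *Ccl4* at 639, 171, 260 and 74.1 CPM, and *Tnf* at 185, 28.5, 0 and 44.4 CPM. The fall at every step was thus not repeated, and only a lower last than first group was. *Tnfaip3* also ended lower in the first thinning, at 838 and 473 CPM. Over cells, the rank correlation of the share with that of the 12 activation genes was -0.05. At 500 UMIs *Il1b* and *Cxcl2* were detected together in 331 of 562 *Pclaf* WT cells and 22 of 34 *Pclaf* KO cells.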

How the data were processed

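The 2 samples were sorted lung cells, 1 library per *Pclaf* genotype, grouped as in the labels. The authors deposited a matrix of raw counts for each library, with UMIs of 31053 genes in every called barcode, made with Cell Ranger, STAR and GRCm38/mm10. The matrix header names version 5.0.0 and the submitters' processing notes version 3.1.0. Depth was 98171818 UMIs in *Pclaf* WT and 111267567 UMIs in *Pclaf* KO, and 0 columns were unmapped. Each UMI counts a molecule at its 3' end, so levels were not divided by gene length. The most abundant gene of a list is the gene with the most UMIs.

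Cells were filtered by the limits of the study's methods and selected by the rule given above. The members and gene lists were chosen with earlier results of these data known. Counts were summed per class and library with Python 3.11.15, numpy 2.4.6, scipy 1.17.1 and pandas 2.3.3, and figures drawn with matplotlib 3.10.9. With 1 library per genotype no test was run, and a difference of 1 log2 unit is a size only. Detection was compared after random thinning to 500 UMIs. The classes set beside neutrophils were selected on markers: endothelial cells had *Cdh5* and *Pecam1* and no *Epcam*, *Ptprc* or *Col1a1*, AT2 cells had *Epcam* and at least 2 of *Sftpb*, *Slc34a2* and *Lamp3* and no *Ptprc*, and alveolar macrophages had at least 2 of *Marco*, *Siglecf*, *Pparg*, Ear1 and Krt79. Named genes were those of the lists, the 20 most abundant, the 10 highest and 10 lowest ratios between genotypes with at least 50 UMIs, and the 15 highest over monocytes. No doublet caller was run and none is stated in the study's methods. Instead cells with UMIs of other lineages were left out by the rule, and more strictly in an alternative. Other alternatives changed the S100 threshold, the filters on cells, the denominator, the minimum UMIs and the weighting of cells, and used scaling factors of edgeR 4.0.16 in R 4.3.3. The code for ratios and intervals was checked on simulated Poisson counts, the model that the intervals assume. Those counts held no spread between cells, so the check does not cover genes carried unevenly by a few cells. Promoter windows came from the RefSeq table on GRCm38.p6.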

Additional observations from a re-analysis of the deposited data

Results flagged for a closer look

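Barcodes high in *S100a8* and *S100a9* (50 or more per 10000 UMIs) also lay outside the neutrophil rule, and their values were not used in the comparisons above. In *Pclaf* WT, 26 such cells had none of the 4 accessory genes. They had a median of 830 UMIs, and *Il1r2* was found in 9 of them. Summed over the 26 cells, *Ngp* stood at 11969 CPM, *Camp* at 8319 CPM and *Elane* at 3215 CPM. Only 3 of the 26 held at least 10 UMIs of *Camp*, *Ngp* and *Ltf* together, so these sums do not describe each cell. A further 242 *Pclaf* WT cells held an accessory gene and also a UMI of an excluded gene, *Cdh5* in 124, *C1qa* in 89, *Cd79a* in 37, *Epcam* in 18 and *Cd3e* in 13. These cells had a median of 3220 UMIs, and *Il1r2* was found in 216 of them, with *Il1b* at 6666 CPM. In *Pclaf* KO, 6 cells held an excluded gene, *Epcam* in 5 of them, with a median of 7516.5 UMIs. A last 4 *Pclaf* KO barcodes failed the limit on mitochondrial UMIs, at a median share of 27.0%, and *Il1r2* was found in all 4. Whether these barcodes were neutrophils with RNA of other cells, or pairs of cells, was not tested.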

How the results depend on the processing

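With 1 library per genotype, values of neutrophils describe these libraries, and counting intervals do not cover differences between mice or between cells. The 34 *Pclaf* KO cells limited every ratio, since 1 UMI among them is a large step. No paired analysis was possible because each genotype had a single library, and leaving out a replicate was not possible for the same reason. In all, 214 of 240 values that answer a comparison stayed within their limits, and 25 moved and 1 reversed. Those values are shares, depths, counts of genes or cells and list medians, and hold no ratio of a single gene. Of the single-gene ratios, 253 stayed within their limits and 65 moved. Under the stricter exclusion 9 of them stayed and 11 moved.

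With a threshold of 500 *S100a8* plus *S100a9* UMIs per 10000, *Pclaf* WT neutrophils numbered 329 (1.09%) and *Pclaf* KO neutrophils 21 (0.134%), the median ratio of all genes was -0.10 with 385 genes lower in *Pclaf* KO and 312 lower than in monocytes, the chemokine median was 0.55 and the immediate early median 0.49, and the mesenchyme median reversed from -2.08 to 0.021. With at least 2 of the 4 accessory genes, the *Pclaf* WT share was 1.68%. With the stricter exclusion it was 1.27%, the *Pclaf* WT medians were 1394 UMIs and 685 genes per cell, and the medians of the immediate early and mesenchyme lists were -0.038 and -0.047. That exclusion used *Col1a1* of the mesenchyme list, so the mesenchyme value was set in part by it. With the limits of 200 and 5000 set on UMIs, the shares were 2.21% and 0.503% of fewer kept cells and the mesenchyme median -0.53, which was also its value without cells over 5000 UMIs. With at least 10 UMIs, 679 genes were higher in *Pclaf* KO and the median of all genes was -0.024, and with at least 100 UMIs 33 genes were higher and 250 lower. The median of all genes was -0.13 without mitochondrial, ribosomal protein and AT2 genes in the denominator and -0.33 with edgeR's factors, so ratios near 0 depend on the scaling. The causes of these shifts were not tested, apart from the cells and genes that each alternative leaves out.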
